A study of Homo sapiens with 12 samples.

Results

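The translation initiation factors are the proteins that bring the initiator tRNA, the small ribosomal subunit and the 5′ end of an mRNA together. Their genes were followed while HT29 cells, a line established from a human colon adenocarcinoma, were exposed to methotrexate. The genes were taken by name from the array annotation: each had a symbol starting with EIF and a digit from 1 to 6, on a probe set that names no other gene. The eIF2 kinases and the eIF4E-binding protein genes, 6 in all, were left out, as were pseudogenes, of which there were 0. This gave 44 genes of the 18377 that were tested, measured by 49 probe sets. They comprised 43 protein-coding genes and EIF3J-DT, a long noncoding RNA whose gene neighbours EIF3J. EIF1AY, a Y-linked gene, is included in the counts and no values are given for it. EIF3C, EIF3CL, EIF4A1, EIF5A and EIF5AL1 were measured only by probe sets that name several genes and so are not among the 44.

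RNA was profiled on Affymetrix human gene arrays, with 12 arrays in 4 groups of 3 biological replicates. The groups were an untreated control and cells given 70 nM methotrexate for 8, 24 or 48 h. All cells were grown in F12 medium with fetal bovine serum, and the control is the only untreated group, listed at 0 h. Hours with the drug and hours in culture therefore changed together and cannot be told apart.

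Methotrexate is an antifolate: it inhibits dihydrofolate reductase and so limits the supply of thymidylate and purines. Initiation begins when eIF2, loaded with GTP and the initiator tRNA, joins eIF1, eIF1A, eIF3 and eIF5 on the small subunit, and eIF4F recruits this complex to the cap of an mRNA. Once the start codon is found, eIF5B joins the large subunit, and eIF2B reloads eIF2 with GTP so that it can be used again. Kinases that phosphorylate eIF2 block eIF2B, and hypophosphorylated eIF4E-binding proteins block eIF4F, which are the main brakes on the process. In colon cancer, as in other tumours, eIF4E and several eIF3 subunits are known for raised levels, and many initiation factor genes are targets of MYC.

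The deposited values were log2 ratios of each array to the median of the 3 control arrays, so a gene's level is unknown and only its differences between arrays can be read. Signal over background, and whether markers of colon epithelium were present, could not be checked for the same reason. Of 6 fibroblast and 3 leukocyte markers, 0 differed from control at any time. Of 10 colon epithelium markers, 1 was higher and 1 lower at 8 h and again at 48 h, and 2 were higher and 1 lower at 24 h. A gene was called when limma's test, fitted over all 12 arrays with Benjamini-Hochberg adjustment over the 18377 genes, gave an adjusted p under 0.05. Errors beside log2 fold changes are limma's standard errors, with n = 3 arrays in each group. The median SD between replicate arrays was 0.0628 over the initiation factor genes at 48 h and 0.0452 in control, on the log2 scale. The third array at 48 h stood apart from the other 2 of its group: its root mean square distance to them reached 0.208 over all genes, against at most 0.143 in the other groups. Counts and medians at 48 h are therefore also given without it, and the genes whose 48 h call it decided are named. Without it 1 fibroblast marker, LUM, was higher at 48 h (0.18, adjusted p = 0.0343).

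At 8 h more initiation factor genes were higher than lower, and by 48 h the balance had turned. At 8 h, 11 of the 44 were called higher and 3 lower, against 12.1% and 12% of all tested genes (24.2% in all). At 24 h, 4 were called higher and 4 lower, where the shares of all genes were 8.69% and 8.02% (16.7% in all). At 48 h, 4 were higher and 13 lower, where the shares of all genes were 13% and 12.3% (25.3% in all). Without the third 48 h array, 4 were higher and 11 lower at that time, the calls of EIF1AX and EIF5B being lost, and 13% and 11.1% of all genes were. The median log2 fold change of the 44 was 0.05 at 8 h, 0.00 at 24 h and -0.09 at 48 h, beside medians of 0.02, 0.02 and 0.01 over all genes. Without that array the 48 h medians were -0.08 over the 44 and -0.01 over all genes. In all, 27 of the 44 differed among the 4 groups by limma's F test, which is 61.4%, where 38.8% of all genes did. The 3 comparisons share the same control arrays, so their values are related.

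The changes were small. A fold change of at least 1.2 with an adjusted p under 0.05 was reached by 8 initiation factor genes at 8 h, 3 at 24 h and 5 at 48 h, beside 16.7%, 11.7% and 18.1% of all genes. The 3 values at 8 h lay wholly above the 3 control values for 20 of the 44 genes and wholly below for 6, where 20.7% and 17.2% of all genes did so. At 24 h they lay wholly above for 9 and wholly below for 7, where 17.8% and 15.2% of all genes did so. At 48 h they lay wholly above for 6 and wholly below for 21, and each of these directions held 17.9% of all genes. When the third 48 h array was left out, 5 genes reached 1.2-fold with a call, beside 16.8% of all genes. Its other 2 arrays lay wholly above control for 8 genes and wholly below for 23, where 23.4% and 25.1% of all genes did so.

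**Figure D1:**
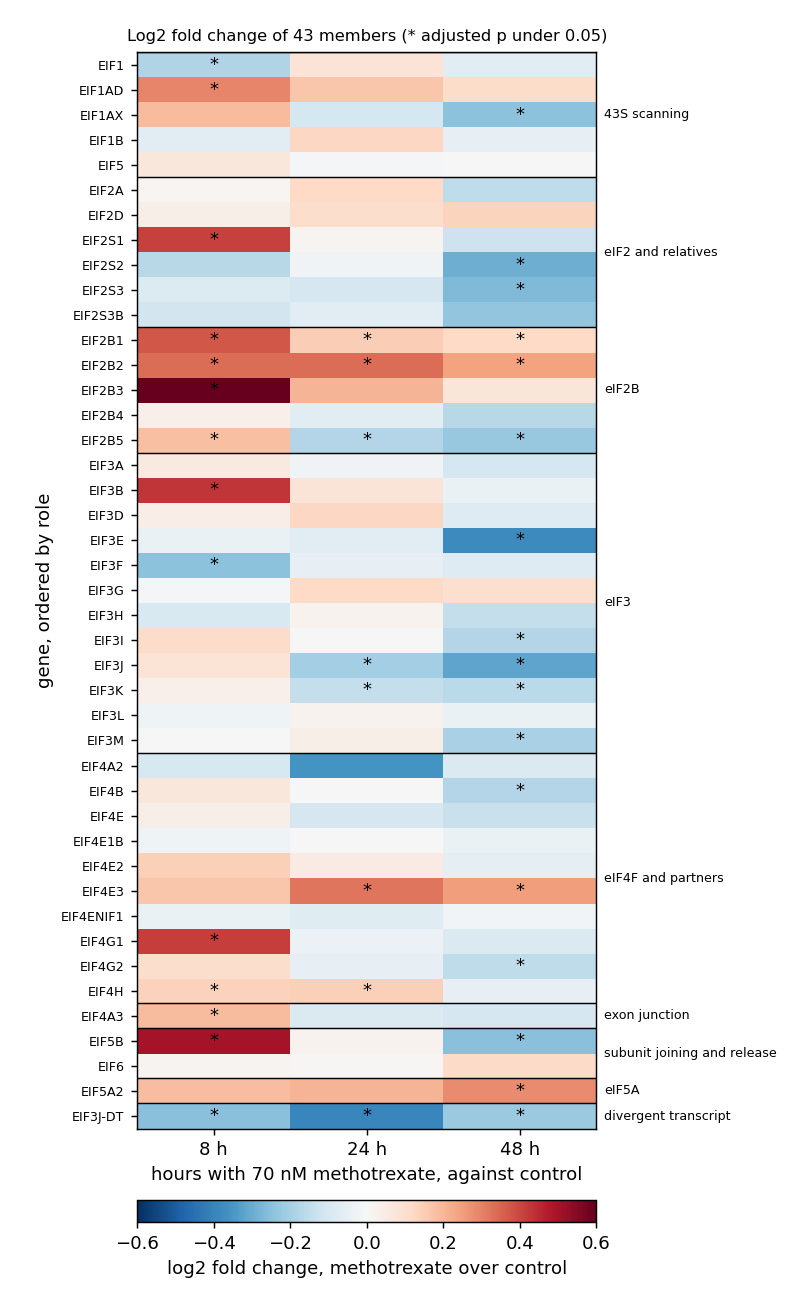
Log2 fold change of 43 of the 44 initiation factor genes (all but EIF1AY) after 8, 24 and 48 h of methotrexate against control, ordered by role, with red for higher and blue for lower and an asterisk for an adjusted p under 0.05. The strongest reds lie in the 8 h column, led by EIF2B3 and EIF5B, and the 48 h column is mostly blue, with EIF3E and EIF3J the lowest.

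Promoters are shown for genes that rose together at 8 h, to give the sequence before their starts. RefSeq windows on GRCh38.p14, which reach from 250 bases before to 50 bases after each annotated start, were available for 38 of the 44 genes. EIF2S2, EIF3A, EIF3E, EIF3G, EIF3H and EIF3L were not matched. The stretches end at the base before the start and run 5′ to 3′ on the gene's strand, with capitals for CACGTG, the E-box that MYC and related factors bind, and for the motif of NRF1 (GCGC, any base, then TGCGC), a factor known for genes of growth and mitochondria.
EIF2B3 (chr1:44986596-44986795, minus strand): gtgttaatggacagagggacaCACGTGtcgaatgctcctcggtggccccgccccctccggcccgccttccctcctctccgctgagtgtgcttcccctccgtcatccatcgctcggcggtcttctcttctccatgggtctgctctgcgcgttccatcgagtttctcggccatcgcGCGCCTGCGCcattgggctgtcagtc
EIF4G1 (chr3:184314456-184314605, plus strand): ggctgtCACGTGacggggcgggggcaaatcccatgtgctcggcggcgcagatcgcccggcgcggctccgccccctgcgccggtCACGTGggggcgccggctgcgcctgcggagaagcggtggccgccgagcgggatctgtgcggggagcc
EIF2S1 (chr14:67360228-67360327, plus strand): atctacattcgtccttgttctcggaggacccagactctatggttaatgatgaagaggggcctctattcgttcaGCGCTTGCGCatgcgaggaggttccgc
EIF5B (chr2:99337289-99337388, plus strand): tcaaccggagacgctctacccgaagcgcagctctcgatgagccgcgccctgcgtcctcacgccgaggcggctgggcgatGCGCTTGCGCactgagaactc
EIF2B3 holds both motifs, beginning 179 bases (E-box) and 26 bases (NRF1) before its start. EIF4G1 holds the E-box at 144 and at 67 bases before its start. In EIF2S1 and EIF5B the NRF1 motif lies 27 and 21 bases before the start.

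Both strands of the whole windows were searched, and a gene was counted where any of its windows held the motif. The E-box was found for 4 of the 11 genes called higher at 8 h and for 6 of the other 27 with a window, and for 8.77% of all 27305 genes with windows. The NRF1 motif was found for 4 of the 11, 4 of the other 27 and 6.98% of all genes. EIF3B, EIF1AD, EIF2B1, EIF2B2 and EIF2B5, also called higher at 8 h, held neither the E-box nor the NRF1 motif. Of the genes called lower at 8 h, 1 held the E-box (EIF3F) and 1 the NRF1 motif (EIF1). CCGGAAG, an ETS motif, was found for 3 of the 11, 7 of the other 27 and 12.16% of all genes. The motifs were chosen with the array values known and the comparison with all genes was not matched for base composition. A match is a description of the letters and not evidence of binding.

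A second feature sits at the transcription start itself. Many mRNAs for ribosomal proteins and translation factors begin with a C followed by a run of pyrimidines, the 5′ terminal oligopyrimidine tract through which mTOR and LARP1 control their translation. Windows of 20 bases before and 15 bases from the annotated start are shown for 5 genes with such a tract, in capitals, and for 2 genes without one, where the capital marks the first transcribed base.
EIF3F (chr11:7987317-7987351, plus strand): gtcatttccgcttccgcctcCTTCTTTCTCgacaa
EIF3K (chr19:38619168-38619202, plus strand): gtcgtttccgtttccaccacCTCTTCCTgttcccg
EIF3M (chr11:32583811-32583845, plus strand): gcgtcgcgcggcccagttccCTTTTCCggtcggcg
EIF2S3 (chrX:24054936-24054970, plus strand): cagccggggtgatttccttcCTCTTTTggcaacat
EIF4B (chr12:53006436-53006470, plus strand): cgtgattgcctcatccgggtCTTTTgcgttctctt
EIF3B (chr7:2354807-2354841, plus strand): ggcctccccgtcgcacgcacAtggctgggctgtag
EIF2B2 (chr14:75002901-75002935, plus strand): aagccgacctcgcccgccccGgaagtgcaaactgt
A tract was counted where an annotated start was a C followed by at least 4 pyrimidines. It was found for 10 of the 38 genes, which is 26.32%, and for 5.14% of all genes with windows. The 10 were EIF2A, EIF2D, EIF2S3, EIF2S3B, EIF3D, EIF3F, EIF3K, EIF3M, EIF4A2 and EIF4B. Starts are as annotated and not measured in HT29 cells.

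Of the 11 initiation factor genes called higher at 8 h, 0 held the tract. At 8 h the median log2 fold change was 0.00 over the 10 genes with a tract, of which 0 were called higher and 1 lower, and 0.14 over the 28 without, of which 11 were higher and 2 lower. At 24 h the medians were -0.02 with and 0.00 without a tract. At 48 h the medians were -0.16 with a tract, where 4 of 10 were lower and 0 higher, and -0.05 without, where 7 of 28 were lower and 4 higher. With the third 48 h array left out they were -0.14 with a tract (4 lower, 0 higher) and -0.06 without (5 lower, 4 higher). Of all tested genes, 12.1% were called higher and 12% lower at 8 h, and 13% higher and 12.3% lower at 48 h. Without the third 48 h array these 48 h shares were 13% and 11.1%. Over the 10 genes with a tract, the counts at 8 h, 0 higher and 1 lower, were near the shares of all genes. The 4 of 28 genes without a tract that were higher at 48 h were near the share of all genes too. This division was made with the values known and is given without a test. EIF4A2 enters it as the mean of 2 probe sets that disagree. Taken singly, 1 of them was called lower at 8 h (-0.26) and higher at 48 h (0.28). The other was at 0.06 and -0.45 at these times, neither called. On these arrays the amount of mRNA was measured and its translation was not.

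**Figure D2:**
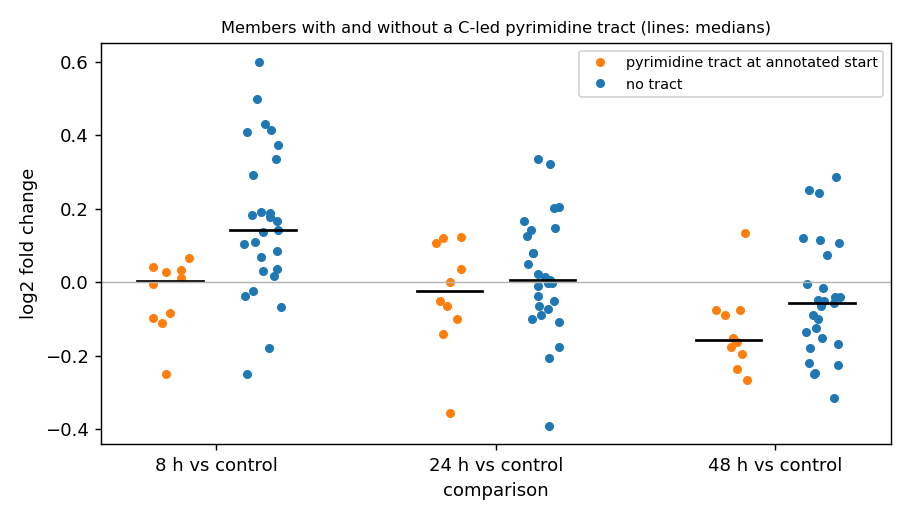
Log2 fold change against control of the initiation factor genes with a promoter window, apart from EIF1AY, which is not drawn. Shown are 10 genes with a C-led pyrimidine tract at an annotated start (orange, left of each pair) and those without (blue). Lines mark the medians of the genes drawn. At 8 h all genes above 0.1 are among those without a tract. With EIF1AY counted, as in the text, the medians are 0.00 and 0.14 at 8 h and -0.16 and -0.05 at 48 h.

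Of the 3 genes for eIF2 subunits, 1 was called higher at 8 h and the other two were called lower at 48 h. EIF2S1 encodes eIF2α, the subunit that stress kinases phosphorylate. Its values at 8 h were 0.42, 0.39 and 0.41, against 0.00, -0.03 and 0.02 in control. The groups were far apart and EIF2S1 rose 1.33-fold at 8 h (log2 fold change 0.41 ± 0.05, adjusted p = 4.1e-05). At 24 h its arrays read 0.02, 0.08 and -0.06, overlapping control, and at 48 h they read -0.09, -0.12 and -0.18, all below control without passing the test (adjusted p = 0.0761).

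EIF2S2 encodes eIF2β, which docks eIF5 and eIF2B. It read 0.07, 0.00 and -0.02 in control, -0.17, -0.23 and -0.05 at 8 h, -0.09, 0.08 and -0.01 at 24 h and -0.34, -0.20 and -0.30 at 48 h. It was lower than control on every array at 8 h and 48 h, and the difference was called at 48 h (log2 fold change -0.29 ± 0.06, adjusted p = 0.00338), and not at 8 h (-0.17 ± 0.06, adjusted p = 0.0761). EIF2S3 encodes eIF2γ, which binds GTP and the initiator tRNA. Its values were -0.21, -0.20 and -0.35 at 48 h, against 0.05, -0.02 and 0.00 in control. The groups did not overlap, and EIF2S3 fell by 0.27 on the log2 scale (adjusted p = 0.00219). The autosomal copy EIF2S3B is nearly identical in sequence, so the probes may not separate them, and its own difference was -0.24 (adjusted p = 0.0578).

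The remaining relatives of eIF2 were not called against control at any time. EIF2A, an initiator tRNA-binding protein separate from eIF2, had log2 fold changes of 0.01, 0.12 and -0.15 at 8, 24 and 48 h. EIF2D, which acts in non-canonical initiation and in recycling, had 0.03, 0.11 and 0.13. Of the 6 genes of eIF2 and its relatives, 1 was called higher at 8 h, 0 at 24 h, and 2 were called lower at 48 h, beside 12.1% of all genes higher at 8 h and 12.3% lower at 48 h. The share called in either direction, 16.7% at 8 h, was below the 24.2% of all genes, and at 48 h it was 33.3%, where 25.3% of all genes were called. Without the third 48 h array the calls of EIF2S2 and EIF2S3 at 48 h held.

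The eIF2B complex, the exchange factor that reloads eIF2 with GTP, had the highest share of called genes at 8 h among the role groups of more than 2 genes: 4 of 5 were higher, where 12.1% of all genes were. EIF2B3, the γ subunit of its catalytic part, had the largest change against control of the 44 genes. Its 3 arrays read 0.63, 0.57 and 0.55 at 8 h, against 0.13, 0.00 and -0.18 in control. Every 8 h value was far above every control value, and EIF2B3 rose 1.52-fold (log2 fold change 0.60 ± 0.07, adjusted p = 4.12e-05). Ranked by the size of the change, it lay within the top 3.06% of all genes at that time. The later arrays read 0.11, 0.17 and 0.29 at 24 h and 0.07, 0.05 and 0.06 at 48 h, overlapping control, and neither difference was called.

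EIF2B1 and EIF2B2 encode the regulatory α and β subunits, which sense phosphorylated eIF2. EIF2B1 read 0.02, 0.00 and -0.01 in control, 0.40, 0.37 and 0.36 at 8 h, 0.15, 0.13 and 0.17 at 24 h and 0.16, 0.13 and 0.09 at 48 h. It stood above control on every treated array, most at 8 h (0.37 ± 0.04, adjusted p = 2.42e-05). The smaller rises of EIF2B1 at 24 h (0.15 ± 0.04, adjusted p = 0.0253) and 48 h (0.12 ± 0.04, adjusted p = 0.0482) were less secure. The 24 h call was lost on leaving out control replicate 1, 2 or 3 or 24 h replicate 1 or 3 (adjusted p between 0.051 and 0.0959), and the 48 h call in 11 of the 12 fits that left out an array, all but the one without 48 h replicate 3 (0.0525 to 0.14). With each array centred on its median the adjusted p at 48 h was 0.0712, and with a robust prior it was 0.0507. EIF2B2 read 0.09, 0.00 and -0.04 in control, 0.39, 0.30 and 0.36 at 8 h, 0.41, 0.30 and 0.33 at 24 h and 0.19, 0.23 and 0.35 at 48 h. Its rise was called at every time: 0.34 ± 0.06 at 8 h, 0.34 at 24 h and 0.24 at 48 h, with adjusted p = 0.000663, 0.00103 and 0.00582, and all 3 calls held when any array was left out.

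EIF2B5, the catalytic ε subunit, changed direction. It read 0.00, 0.00 and -0.08 in control, 0.21, 0.11 and 0.14 at 8 h, -0.22, -0.24 and -0.14 at 24 h and -0.29, -0.24 and -0.21 at 48 h. All values at 8 h lay above control and all values at 24 and 48 h below it. Between 24 and 8 h it differed by -0.35 ± 0.05, adjusted p = 0.000222. The log2 fold change was 0.18 ± 0.05, adjusted p = 0.0166 at 8 h, then -0.18 ± 0.05, adjusted p = 0.0256 at 24 h and -0.23 ± 0.05, adjusted p = 0.00384 at 48 h. The 8 h call was lost on leaving out control replicate 3 (0.0673) or 8 h replicate 1 (0.0641), and the 24 h call without control replicate 1 or 2 or 24 h replicate 1 or 2 (0.0768 to 0.097), while the 48 h call held throughout. EIF2B4, the δ subunit, was not called at any time, with 0.03, -0.06 and -0.17. At 48 h the complex thus had 2 subunits called higher, 1 lower and 2 not called, where 13% and 12.3% of all genes were higher and lower. The higher call of EIF2B1 was the insecure one described above. Without the third 48 h array the counts were again 2 higher and 1 lower, where 13% and 11.1% of all genes were.

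Among the 6 genes grouped with the factors that bind the small subunit before scanning, 1 was called higher and 1 lower at 8 h. None was called at 24 h, and 1 was lower at 48 h. The shares called were 33.3%, 0% and 16.7%, where 24.2%, 16.7% and 25.3% of all genes were called. Without the third 48 h array 0 were called at 48 h, where 24.2% of all genes were. EIF1, which keeps the scanning complex from settling on a wrong start codon, read -0.16, -0.19 and -0.12 at 8 h, against -0.04, 0.11 and 0.00 in control. The groups did not overlap, and EIF1 fell by 0.18 on the log2 scale (adjusted p = 0.0243). That call was lost on leaving out control replicate 2 (0.122), 8 h replicate 1 (0.0557) or 8 h replicate 2 (0.0918). EIF1B, its close relative, read -0.03, -0.14 and -0.04 at 8 h, against 0.00, 0.02 and -0.02 in control, and its difference was -0.07 ± 0.06, adjusted p = 0.518. EIF1AD, whose product carries an eIF1A-like domain, was higher at 8 h (0.29 ± 0.07, adjusted p = 0.00612).

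EIF1AX encodes eIF1A, which with eIF1 holds the subunit open for scanning. Its arrays read -0.17, -0.17 and -0.42 at 48 h, against 0.00, 0.00 and -0.02 in control. All 3 values were lower, the third array most, and EIF1AX fell by 0.25 (adjusted p = 0.0205). The call was lost on leaving out that array, control replicate 1 or control replicate 2 (adjusted p between 0.0608 and 0.0668). Without that array the log2 fold change was -0.17. EIF1AX is the mean of 2 probe sets, at -0.27 and -0.23 at 48 h, both called singly. At 8 h all 3 of its values lay above control without a call (0.19 ± 0.07, adjusted p = 0.0741). Of its probe sets taken singly, the one at 0.24 was called at 8 h (adjusted p = 0.0412) and the one at 0.14 was not (0.171). EIF1AX and EIF1AY are near copies that the probes may not separate. EIF5, which triggers GTP hydrolysis by eIF2 at the start codon, was not called at any time, with 0.07, -0.01 and 0.00 at 8, 24 and 48 h.

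The eIF3 subunits form the largest group, and at 48 h their calls were all in one direction. Of 12 subunits, 5 were lower and 0 higher at 48 h, with a median of -0.12 and 11 of 12 log2 fold changes below 0, where 12.3% of all genes were lower and 13% higher. The third 48 h array left out, 5 were again lower and 0 higher, with a median of -0.11 and 11 of 12 below 0. At 8 h, 1 was higher and 1 lower, a share of 16.7% against 24.2% of all genes, and at 24 h 2 were lower, which is the 16.7% called among all genes. EIF3E, a peripheral subunit, had the largest fall of the 44 genes at 48 h. It read -0.41, -0.36 and -0.39 at 48 h, against -0.11, 0.00 and 0.09 in control. The 3 values at 48 h were tightly grouped and far below control, and EIF3E was 1.30-fold lower (log2 fold change -0.38 ± 0.06, adjusted p = 0.00024). At 8 and 24 h it differed from control by -0.04 and -0.07, neither called.

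EIF3J is a loosely bound subunit that helps place mRNA on the small subunit and acts in recycling. It read -0.04, 0.00 and 0.00 in control, 0.10, 0.03 and 0.09 at 8 h, -0.28, -0.17 and -0.20 at 24 h and -0.23, -0.33 and -0.42 at 48 h. It was above control on all 8 h arrays without a call (0.08 ± 0.05, adjusted p = 0.336) and below on all later arrays, with log2 fold changes of -0.20 ± 0.05, adjusted p = 0.0199 at 24 h and -0.31 ± 0.05, adjusted p = 0.000815 at 48 h. The 24 h call was lost on leaving out control replicate 2 or 3 or 24 h replicate 1 or 3 (0.053 to 0.0955). EIF3K read -0.15, -0.12 and -0.12 at 24 h and -0.15, -0.18 and -0.12 at 48 h, while control read 0.05, -0.02 and 0.00. Its falls were small, -0.14 ± 0.04, adjusted p = 0.0448 at 24 h and -0.16 ± 0.04, adjusted p = 0.0154 at 48 h. The first was lost in 11 of the 12 fits that left out an array, all but the one without 48 h replicate 3 (0.0513 to 0.16), and the second without control replicate 1 or 48 h replicate 2 (0.0596 to 0.0667).

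EIF3I, which forms a module with EIF3B and EIF3G, fell by 0.18 at 48 h (adjusted p = 0.00902), and EIF3M, a peripheral subunit, fell by 0.19 (adjusted p = 0.0112). The calls of EIF3E, EIF3I, EIF3J and EIF3M at 48 h held when any of the 12 arrays was left out. EIF3B, a core scaffold subunit, was the 1 eIF3 gene that rose at 8 h. Its values were 0.52, 0.46 and 0.34 at 8 h, against 0.07, 0.00 and -0.04 in control. The groups were well separated, and EIF3B rose 1.35-fold (log2 fold change 0.43 ± 0.06, adjusted p = 0.000118). At 48 h it read -0.08, -0.04 and 0.03 and was back among the control values.

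EIF3F, a subunit with a metalloprotease-like domain, went the other way at 8 h. It read -0.38, -0.21 and -0.20 at 8 h, against 0.00, -0.06 and 0.01 in control. The 3 treated values were all lower, one of them well below the other 2, and EIF3F fell by 0.25 (adjusted p = 0.00554), a call that held when any array was left out. At 24 and 48 h its differences were -0.05 and -0.08, not called. EIF3A, the largest scaffold subunit, and EIF3D, EIF3G, EIF3H and EIF3L were not called against control at any time, with log2 fold changes between -0.14 and 0.12.

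**Figure D3:**
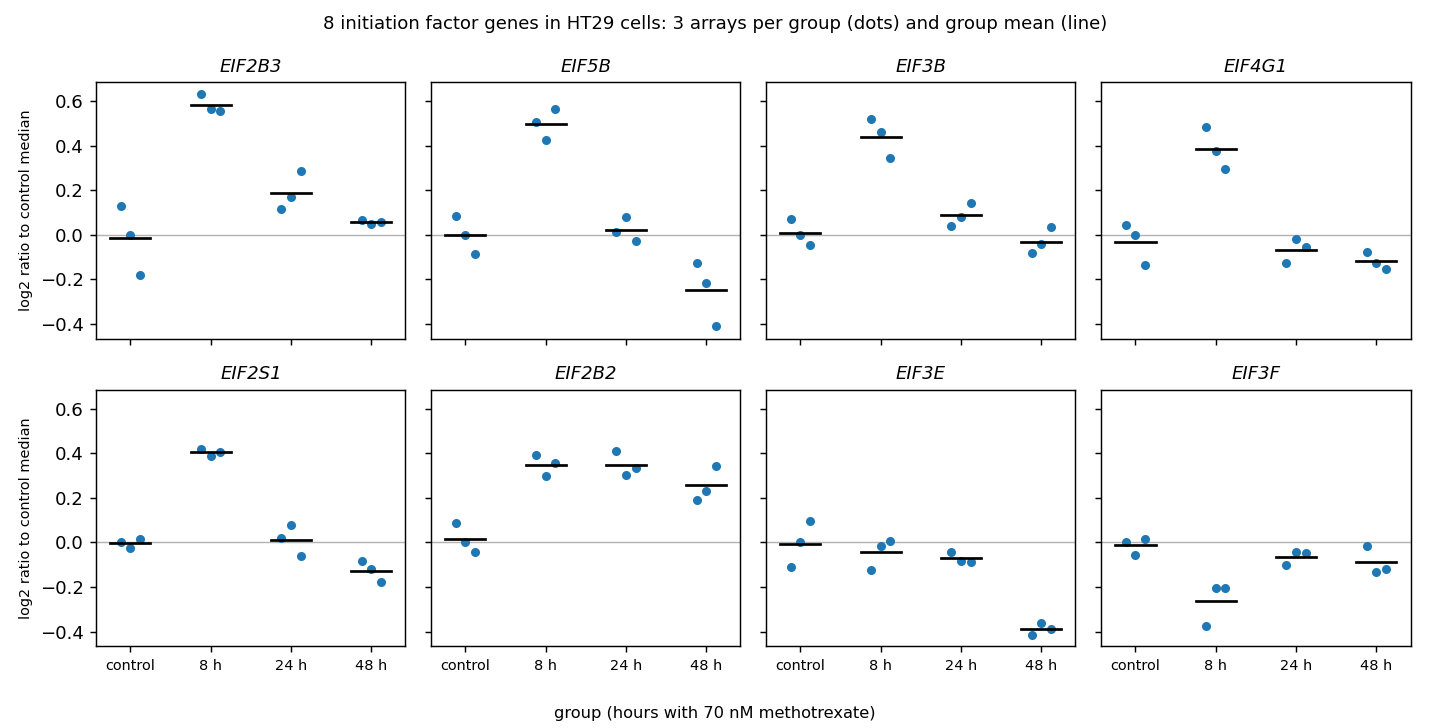
Log2 ratio to the control median on every array (dots) and the group mean (line) for 8 initiation factor genes, by hours with 70 nM methotrexate. EIF2B3, EIF5B, EIF3B, EIF4G1 and EIF2S1 were highest on the 3 arrays at 8 h, EIF2B2 stayed above control at all times, EIF3E was lowest at 48 h, and EIF3F was lowest at 8 h.

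The eIF4F complex consists of the cap-binding protein eIF4E, the scaffold eIF4G and the helicase eIF4A. EIF4G1, the main scaffold gene, read 0.48, 0.38 and 0.29 at 8 h, against 0.04, 0.00 and -0.14 in control. The 2 groups did not overlap, and EIF4G1 rose 1.33-fold (log2 fold change 0.42 ± 0.06, adjusted p = 0.000275). Its arrays read -0.13, -0.02 and -0.06 at 24 h and -0.08, -0.13 and -0.16 at 48 h, overlapping control, with differences of -0.04 and -0.09 that were not called. EIF4G2, a scaffold that lacks the eIF4E-binding site, was lower at 48 h (-0.15 ± 0.04, adjusted p = 0.0157), a call that was lost on leaving out control replicate 2 (0.0676).

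Among genes for cap-binding proteins of the eIF4E family, EIF4E3 was the 1 with a call. EIF4E read 0.11, 0.00 and -0.12 in control, 0.01, -0.13 and 0.22 at 8 h, -0.12, -0.06 and -0.13 at 24 h and -0.08, -0.13 and -0.21 at 48 h. Its 8 h arrays were widely spread, and its differences of 0.04, -0.10 and -0.13 were not called. The sign at 8 h changed when control replicate 3 or 8 h replicate 3 was left out, so no direction can be given. EIF4E2, a cap-binding protein that represses translation, read 0.15, 0.00 and -0.05 in control, 0.22, 0.20 and 0.11 at 8 h, 0.16, 0.01 and 0.09 at 24 h and 0.04, -0.07 and -0.05 at 48 h, and was not called either.

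EIF4E3, an atypical cap-binding relative of eIF4E, read -0.10, 0.00 and 0.02 in control, 0.16, 0.11 and 0.16 at 8 h, 0.28, 0.33 and 0.28 at 24 h and 0.18, 0.39 and 0.11 at 48 h. All treated values were above all control values. EIF4E3 was called higher at 24 h (0.32 ± 0.07, adjusted p = 0.00416) and at 48 h (0.25 ± 0.07, adjusted p = 0.0118), and was at 0.17 ± 0.07, adjusted p = 0.0877 at 8 h. The 48 h call was lost on leaving out control replicate 1 (0.0583).

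Differences between related genes on the same array were tested over the 4 groups with an exact permutation F test of 369600 assignments, for the 3 pairs that could be measured. EIF4E minus EIF4E3 averaged 0.02 in control arrays, -0.11 at 8 h, then -0.40 at 24 h and -0.36 at 48 h (p = 0.0216, adjusted p = 0.0649 over 3 pairs, exact permutation). With control replicate 3 left out the adjusted p was 0.0479, and with 8 h replicate 3 left out it was 0.0265. These are the arrays without which the sign of EIF4E at 8 h changed. Leaving out other arrays also raised the adjusted p above its value with all arrays, and the range is given further below. EIF4E minus EIF4E2 averaged -0.04 in control arrays, -0.14 at 8 h, then -0.19 at 24 h and -0.11 at 48 h (adjusted p = 0.588, exact permutation). EIF1 minus EIF1B averaged 0.02 in control arrays, -0.09 at 8 h, then -0.02 at 24 h and 0.01 at 48 h (adjusted p = 0.579, exact permutation). The smallest p this test can give is 6.49e-05.

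EIF4B and EIF4H both stimulate the helicase. EIF4B was lower at 48 h (-0.18 ± 0.04, adjusted p = 0.00723), and this held when any array was left out. Of its 3 probe sets taken singly, those at -0.14 and -0.27 were called and the one at -0.11 was not (adjusted p = 0.513). EIF4H read 0.19, 0.12 and 0.10 at 8 h and 0.11, 0.14 and 0.17 at 24 h, while control read 0.01, 0.00 and -0.02. Its rises were small, 0.14 ± 0.04, adjusted p = 0.0324 at 8 h and 0.14 ± 0.04, adjusted p = 0.0357 at 24 h. The first was lost on leaving out control replicate 1, 2 or 3 or 8 h replicate 1 or 2 (0.061 to 0.115), and the second in 8 of the 12 fits that left out an array (0.0508 to 0.13). Both were also lost when each array was centred on its median, with adjusted p = 0.0592 at 8 h and 0.0541 at 24 h.

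The 2 probe sets of EIF4A2, a gene for the eIF4A helicase, disagreed. One read 0.20, 0.23 and 0.25 at 24 h, against 0.11, -0.02 and 0.00 in control. The other read -1.13, -0.38 and -1.31 at 24 h, against 0.00, 0.08 and -0.17 in control. The first was high and the second low on all 24 h arrays, so their mean of -0.36 ± 0.14 (not called) describes neither. Taken singly against control, the first was called by limma's test at 8 h (-0.26, adjusted p = 0.0035), 24 h (0.20, 0.0243) and 48 h (0.28, 0.00198). The second was called at 24 h (-0.91, adjusted p = 0.0265) and not at 8 h (0.06) or 48 h (-0.45). EIF4ENIF1, which carries eIF4E into the nucleus, and EIF4E1B, an oocyte-type relative of eIF4E, were not called at any time, with -0.07 and 0.00 at 24 h.

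EIF5B, the GTPase that joins the large subunit to the assembled complex, had the widest swing. It read 0.09, 0.00 and -0.09 in control, 0.51, 0.43 and 0.56 at 8 h, 0.01, 0.08 and -0.03 at 24 h and -0.13, -0.21 and -0.41 at 48 h. The 8 h values were all above control, the 24 h values overlapped it, and the 48 h values were all below it. EIF5B rose 1.41-fold at 8 h (log2 fold change 0.50 ± 0.07, adjusted p = 0.000235) and was lower than control at 48 h (-0.25 ± 0.07, adjusted p = 0.0219). The 48 h call was lost on leaving out control replicate 1 (0.0979), control replicate 2 (0.0609) or 48 h replicate 3 (0.0751, with a log2 fold change of -0.17). EIF6, which keeps the large subunit from joining early, was not called, with 0.02, 0.01 and 0.11.

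EIF4A3, a helicase of the eIF4A family that belongs to the exon junction complex, was higher at 8 h (0.19 ± 0.04, adjusted p = 0.0074) and not called later. EIF5A2, a relative of eIF5A that carries hypusine, read 0.11, -0.05 and 0.00 in control, 0.25, 0.23 and 0.13 at 8 h, 0.14, 0.38 and 0.14 at 24 h and 0.42, 0.34 and 0.15 at 48 h. All treated values lay above control, and the rise was called at 48 h (0.29 ± 0.08, adjusted p = 0.0197). That call was lost on leaving out control replicate 2 or 3 or 48 h replicate 1 or 2 (0.0555 to 0.0825).

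EIF3J-DT, the noncoding neighbour of EIF3J, was lower at every time. It read 0.14, -0.03 and 0.00 in control, -0.21, -0.29 and -0.14 at 8 h, -0.38, -0.42 and -0.27 at 24 h and -0.17, -0.23 and -0.16 at 48 h. No treated array overlapped control, and the log2 fold changes were -0.25 at 8 h, -0.39 at 24 h and -0.22 at 48 h (adjusted p = 0.00849, 0.000617 and 0.0162). EIF3J itself was at 0.08, -0.20 and -0.31 at these times. The 48 h call of EIF3J-DT was lost on leaving out control replicate 1 or 48 h replicate 2 (0.0616 to 0.0811).

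The treated groups were also compared with each other. At 24 h against 8 h, 3 genes were higher and 12 lower, where 9.99% and 9.4% of all genes were (19.4% in all). At 48 h against 24 h, 0 were higher and 9 lower, where 5.26% and 4.86% of all genes were (10.1% in all). At 48 h against 8 h, 1 was higher and 20 lower, where 15.3% and 14.4% of all genes were (29.7% in all). The median log2 difference over the 44 genes was -0.07, -0.10 and -0.17 in these 3 comparisons, beside 0.00, -0.01 and -0.01 over all genes. Without the third 48 h array, 1 was higher and 8 lower at 48 h against 24 h, and 2 higher and 20 lower at 48 h against 8 h, of which 17 were also lower with it. The medians over the 44 genes were then -0.09 and -0.15, beside -0.02 and -0.03 over all genes. These comparisons share arrays with those against control and with each other.

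Changes of at least 1.2-fold with a call were fewer: 9 genes at 24 h against 8 h, 4 at 48 h against 24 h and 11 at 48 h against 8 h, beside 13.6%, 6.8% and 21.9% of all genes. The 3 later values lay wholly above the earlier ones for 5 genes and wholly below for 16 at 24 h against 8 h, where 16.7% and 16.6% of all genes did so. At 48 h against 24 h the counts were 1 and 19, where the shares of all genes were 11.5% and 12.6%. At 48 h against 8 h they were 1 and 24, where the shares were 18.3% and 19.5%. When the third 48 h array was left out, 3 genes reached 1.2-fold with a call against 24 h and 10 against 8 h, beside 7.76% and 22% of all genes. The other 2 arrays lay wholly above for 3 and wholly below for 22 genes against 24 h (18.6% and 24% of all genes), and for 5 and 26 genes against 8 h (24% and 31.4%).

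The genes lower at 24 h than at 8 h were led by genes called higher at 8 h. The log2 difference of EIF5B between 24 and 8 h was -0.48 ± 0.07, adjusted p = 0.000458. That of EIF4G1 was -0.45 ± 0.06, adjusted p = 0.000204, and that of EIF2S1 was -0.39 ± 0.05, adjusted p = 8.35e-05. EIF1, EIF1B and EIF3F were the 3 genes higher at 24 h than at 8 h, by 0.26, 0.19 and 0.20. The 9 genes lower at 48 h than at 24 h were EIF3E (-0.32), EIF2S2 (-0.27), EIF2A (-0.27), EIF3M (-0.23), EIF3D (-0.20), EIF4H (-0.19), EIF4B (-0.18) and EIF3I (-0.18), besides EIF5B (-0.27). EIF5B was at -0.19 (adjusted p = 0.0724) without the third 48 h array, the other 8 stayed called, and EIF4A2, whose probe sets disagree, was higher (0.46, adjusted p = 0.0121). EIF5B had the largest difference of the 44 genes between 48 and 8 h (-0.75 ± 0.07, adjusted p = 4.93e-06), which lay within the top 2.84% of all genes by size.

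Several genes that control the initiation factors had larger fold changes than any of the 44. Of 6 genes for eIF2 kinases and regulators of the eIF2 phosphatase, 3 were lower at 8 h and 0 higher, where 12% and 12.1% of all genes were. EIF2AK2, the kinase PKR that senses double-stranded RNA, read 0.00, 0.10 and 0.00 in control, -0.57, -0.75 and -0.66 at 8 h, -0.68, -0.55 and -0.66 at 24 h and -0.42, -0.37 and -0.65 at 48 h. It was low on all treated arrays, with log2 fold changes of -0.69, -0.66 and -0.51 ± 0.07, each call held when any array was left out. EIF2AK3, the kinase PERK of the endoplasmic reticulum, was lower at 8 h (-0.66 ± 0.08, adjusted p = 8.27e-05) and not called at 24 or 48 h (-0.21 and -0.19). PPP1R15A, or GADD34, the inducible subunit that directs a phosphatase to eIF2α, was also lower at 8 h (-0.74 ± 0.07, adjusted p = 6.46e-06) and not called later.

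At 48 h 1 of these 6 genes was higher and 2 were lower, where 13% and 12.3% of all genes were. EIF2AK4, the kinase GCN2 that senses uncharged tRNA, was higher (0.29 ± 0.08, adjusted p = 0.0234) and PPP1R15B, the constitutive phosphatase subunit, was lower (-0.17 ± 0.06, adjusted p = 0.0448). The EIF2AK4 call was lost on leaving out control replicate 3 or 48 h replicate 1 or 2 (0.074 to 0.0983), and that of PPP1R15B in 8 of the 12 fits that left out an array, 48 h replicate 3 among them (0.0589 to 0.192).

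Of 9 regulators of the cap-binding complex, 1 was higher and 3 lower at 8 h, where 12.1% and 12% of all genes were, so that the higher count was near the share of all genes. PDCD4, an inhibitor of the eIF4A helicase, read -0.91, -1.10 and -1.15 at 8 h, against 0.09, 0.00 and -0.18 in control. It was 2.04-fold lower (log2 fold change -1.03 ± 0.12, adjusted p = 5.51e-05), and at 48 h it was at -0.15 and not called. EIF4EBP1, which sequesters eIF4E, read -0.05, 0.00 and 0.17 in control, -0.49, -0.42 and -0.36 at 8 h, -0.37, -0.51 and -0.21 at 24 h and -1.09, -1.08 and -0.49 at 48 h. It was low on all treated arrays, called at 8 h (-0.47 ± 0.14, adjusted p = 0.0231) and 48 h (-0.93 ± 0.14, adjusted p = 0.000222) and not at 24 h (adjusted p = 0.0604). The 8 h call was lost on leaving out control replicate 2 or 3 or 8 h replicate 1 or 2 (0.0527 to 0.087).

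MKNK1 and MKNK2, the kinases that phosphorylate eIF4E, were called at different times. MKNK2 was lower at 8 h (-0.46 ± 0.06, adjusted p = 0.00016) and not called later. MKNK1 was higher at 24 h (0.70 ± 0.07, adjusted p = 1.92e-05) and 48 h (0.67 ± 0.07, adjusted p = 1.51e-05), with 0.64, 0.66 and 0.66 on the 24 h arrays and 0.61, 0.61 and 0.67 on the 48 h arrays, while control read 0.00, 0.05 and -0.19. RPS6KB2, a kinase of the mTOR branch, was higher at 8 h (0.32) and 24 h (0.21), the 24 h call being lost in 8 of the 12 fits that left out an array. LARP1, which represses mRNAs with a 5′ pyrimidine tract, was lower at 48 h (-0.16 ± 0.05, adjusted p = 0.0356), and this was lost in 6 of those fits, 48 h replicate 3 among them.

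Of 6 other initiation factors that do not carry the EIF name, 2 were higher at 8 h and 4 lower at 48 h, where 12.1% and 12.3% of all genes were. At 48 h 2 were lower without the third array, where 11.1% of all genes were. ABCE1, which splits ribosomes after termination, read -0.01, 0.04 and 0.00 in control, 0.67, 0.49 and 0.57 at 8 h, -0.04, 0.16 and -0.09 at 24 h and -0.28, -0.26 and -0.60 at 48 h. Its log2 fold changes were 0.57 at 8 h, 0.00 at 24 h and -0.39 at 48 h, set beside 0.50, 0.02 and -0.25 for EIF5B. The RNA helicase gene DDX3X was higher at 8 h (0.23). MCTS1 and DENR, which form a heterodimer for reinitiation, were lower at 24 h (-0.22 and -0.33) and 48 h (-0.30 and -0.27), and the scanning helicase gene DHX29 was lower at 48 h (-0.28). Leaving out 48 h replicate 3 lost the 48 h calls of DENR (0.0543 to 0.156 over 8 such fits of 12) and DHX29, and leaving out control replicate 1 lost that of DHX29 too (0.0523 to 0.081). Without 48 h replicate 3 the log2 fold changes were -0.17 for DENR and -0.18 for DHX29. With array weights DENR was at -0.12 (adjusted p = 0.104), and with each array centred on its median its adjusted p was 0.0584. The 24 h calls of DENR and MCTS1 were lost in 2 and 5 fits that left out an array, and the 8 h call of DDX3X in 4.

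Of 8 elongation factor genes, 2 were higher and 1 lower at 8 h, and 1 was higher and 1 lower at 24 h and again at 48 h. The share called was 37.5% at 8 h and 25% at 24 and 48 h, where 24.2%, 16.7% and 25.3% of all genes were called, so at 48 h it was that of all genes. At 8 h the higher genes were EEF1B2 (0.28), an exchange factor subunit, and EEF2K (0.30), the kinase that inhibits eEF2, and the lower one was EEF2 (-0.14), the translocase, whose call was lost in 7 of the 12 fits that left out an array. EEFSEC, the selenocysteine elongation factor, was lower at 24 h (-0.23) and 48 h (-0.20). EEF1A2, the tissue-restricted form of the factor that brings aminoacyl-tRNA to the ribosome, read 0.48, 0.39 and 0.58 at 24 h and 0.76, 0.74 and 0.94 at 48 h, while control read 0.00, 0.00 and 0.02. It rose at both times (0.48 ± 0.06, adjusted p = 0.000131 at 24 h and 0.81 ± 0.06, adjusted p = 7.5e-07 at 48 h) and was at 0.05 at 8 h. DHPS, the first enzyme of the hypusine modification of eIF5A, was lower at 8 h (-0.35 ± 0.05, adjusted p = 0.000408) and higher at 24 h (0.27 ± 0.05, adjusted p = 0.00373) and 48 h (0.22 ± 0.05, adjusted p = 0.00843). Among 4 genes of poly(A)-binding proteins and their partners, PABPC4 was higher at 8 h (0.21), PAIP2 lower at 24 h (-0.18) and PAIP1 lower at 48 h (-0.25), the first of these calls being lost in 4 and the second in 5 of the 12 fits that left out an array. The first was also lost with each array centred on its median (0.0613). At each time 25% of the 4 were called, where 24.2%, 16.7% and 25.3% of all genes were. At 8 and 48 h this was near the share of all genes. PABPC4 was called higher at 48 h too without the third 48 h array (0.20, adjusted p = 0.0452).

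**Figure D4:**
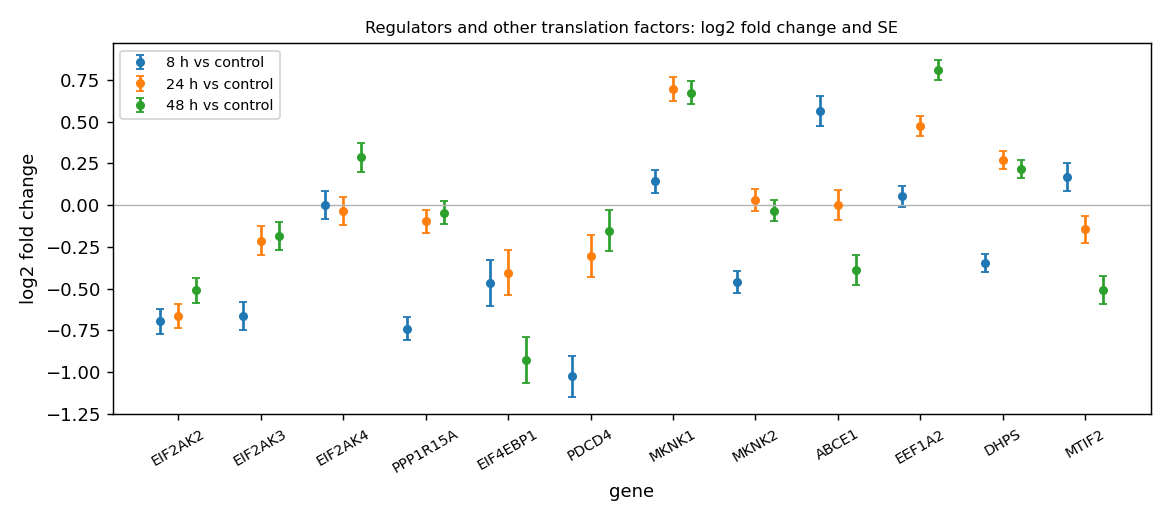
Log2 fold change and standard error (bars) of 12 regulators and other translation factors after 8, 24 and 48 h of methotrexate against control, with 3 arrays in each group. EIF2AK3, PPP1R15A, PDCD4 and MKNK2 were lowest at 8 h, EIF2AK2 was low at all times, EIF4EBP1 was lowest at 48 h, MKNK1 and EEF1A2 were high at 24 and 48 h, and ABCE1 was high at 8 h and low at 48 h.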

How the data were processed

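The deposited log2 values, 1 for each probe set on each array, came from RMA on the build hg19, per the submitters' processing notes, with no versions given. RMA handles background, scaling between arrays and the summary of probes. Control arrays had a median of exactly 0 for all 28869 probe sets, which makes each value a ratio to that median; no source used here describes how this was done, and base 2 follows from RMA. Titles gave the groups and call the replicates biological.

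By the platform annotation 19310 probe sets had 1 gene, 1752 several and 7807 none named here. Probe sets of a gene were averaged, as for 4 of the 44 genes. Group means were fitted in limma 3.58.1 under R 4.3.3 (lmFit, contrasts.fit, eBayes; 8 residual and 4.71 prior degrees of freedom), two-sided, and the procedure was tested on simulated data. Figures used Python 3.11.15 and matplotlib 3.10.9.

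Members, role groups and partner lists were chosen with earlier results of these data known. Values on every array are given for up to the 6 largest called rises and falls at each time, for paralog pairs, and for EIF2S1, EIF2S2, EIF2S3, EIF2B5, EIF4E and EIF4G1. EIF3J-DT, EIF4A2 and some regulators were added after their values were seen. Of 6 paralog pairs listed, 3 were measured on probe sets of 1 gene, and EIF4G3 was not analysed here. Alternatives were a replicate block, array centring, array weights, fits of the 2 groups compared, single probe sets, a robust prior, stricter thresholds and leaving out each array. If the replicates were not separate cultures, the p-values cover technical spread only.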

Additional observations from a re-analysis of the deposited data

Results flagged for a closer look

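For 21 initiation factor genes the change from control at 48 h differed from that at 8 h. The test was limma's, of the difference itself over all genes (adjusted p under 0.05). Because both changes are taken against the same control arrays, this difference equals 48 h minus 8 h. Hours with the drug and hours in culture cannot be told apart in it. For 20 of the 21 the value at 48 h was the lower. The largest was EIF5B, at -0.75 on the log2 scale, followed by EIF2S1 and EIF2B3 at -0.53 each, EIF4G1 at -0.50, EIF3B at -0.47 and EIF1AX at -0.44. EIF2B5 and EIF3J were at -0.40 each, EIF3E at -0.34, EIF3I and EIF4A3 at -0.29 each, EIF4G2 at -0.26, EIF2B1 at -0.25 and EIF4B at -0.24. Smaller differences were EIF4E2 at -0.20, EIF3K, EIF3M and EIF4H at -0.19 each, EIF2S3 at -0.18 and EIF2A at -0.16. EIF3F had the 1 difference in the other direction, 0.17. Without the third 48 h array, 18 of the 21 stayed called, and EIF2A (-0.11), EIF2S3 (-0.13) and EIF4E2 (-0.19) did not.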

How the results depend on the processing

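Across the alternatives, counts of called genes moved. The replicate block, the fits of 2 groups, the robust prior and the stricter thresholds leave log2 fold changes as they are by construction. Counts and fold changes are therefore not compared in how far they moved. Array weights gave 9 higher and 7 lower at 24 h, and for 48 h against 24 h 2 higher and 20 lower, and for 48 h against 8 h 5 higher. Fits of only the 2 groups compared gave 2 higher at 24 h, 2 higher at 48 h, 1 lower for 48 h against 24 h and 0 higher for 48 h against 8 h. An adjusted p under 0.01 gave 2 higher and 1 lower at 24 h, 1 higher and 7 lower at 48 h, 1 higher for 24 h against 8 h, 2 lower for 48 h against 24 h and 0 higher for 48 h against 8 h. A minimum of 1.2-fold gave 0 lower at 8 h, 2 higher and 1 lower at 24 h, 1 higher and 4 lower at 48 h, 0 higher for 24 h against 8 h, 4 lower for 48 h against 24 h, and 0 higher and 11 lower for 48 h against 8 h. Centring, single probe sets and the robust prior kept every count of called genes within 1.5 times. The thresholds apart, the cause was not tested. Shares of all genes called under each setting are not set beside these counts, nor beside those for left-out arrays and the replicate block below. Such counts therefore do not show how these genes stand to all genes under a changed setting.

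Leaving out each of the 12 arrays in turn gave 9 to 13 higher and 2 to 4 lower at 8 h, 2 to 4 higher and 1 to 5 lower at 24 h, and 2 to 4 higher and 9 to 15 lower at 48 h. It gave 1 to 4 higher and 10 to 12 lower for 24 h against 8 h, 0 to 1 and 4 to 10 for 48 h against 24 h, 0 to 2 and 17 to 21 for 48 h against 8 h, and 24 to 29 genes differing among the groups. The adjusted p of EIF4E minus EIF4E3 ranged between 0.0265 and 0.142. Signs turned for 5 small uncalled values. EIF4E at 8 h lay between -0.061 (without 8 h replicate 3) and 0.12 and was -0.024 without control replicate 3. EIF2S2 at 24 h lay between -0.067 and 0.021 (without 24 h replicate 1) and was 0.0048 without control replicate 1. EIF4G1 at 24 h lay between -0.089 and 0.0013 (without control replicate 1), EIF2S1 at 24 h between -0.019 (without 24 h replicate 2) and 0.052, and EIF4E2 at 48 h between -0.098 and 0.00053 (without control replicate 1).

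Replicate numbers are shared by the groups, and the titles do not say whether they pair the arrays. Correlations of deviations between arrays of the same number ran between -0.45 and 0.45 for replicate 1 and -0.39 and 0.47 for replicate 2. For replicate 3 all were positive, between 0.02 and 0.46, so whether the numbers pair the arrays was not settled. With the number as a replicate block, 10 genes were higher and 3 lower at 8 h, 3 and 4 at 24 h, and 3 and 14 at 48 h. With 3 arrays in each group, precision is limited by their number, and without levels no signal over background could be set beside a value.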

Other observations

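The factors that translate mitochondrial mRNAs, encoded by nuclear genes, form a group of 8 measured genes. Of these, 3 were called higher and 1 lower at 8 h, 0 higher and 1 lower at 24 h, and 1 higher and 6 lower at 48 h, where 12.1% and 12%, 8.69% and 8.02%, and 13% and 12.3% of all genes were called higher and lower. At 48 h against 8 h, 1 was higher and 6 lower, where 15.3% and 14.4% of all genes were. MTIF2, the mitochondrial counterpart of the factor that places the initiator tRNA, read -0.43, -0.50 and -0.76 at 48 h, against 0.00, 0.01 and -0.17 in control, and fell by 0.51 on the log2 scale (adjusted p = 0.000521). GFM1, a mitochondrial elongation factor, was higher at 8 h (0.37 ± 0.07, adjusted p = 0.00237) and lower at 48 h (-0.30 ± 0.07, adjusted p = 0.00933), and MRRF, the ribosome recycling factor, likewise (0.18 ± 0.05, adjusted p = 0.0323 and -0.41 ± 0.05, adjusted p = 0.000106). MTIF3 (-0.33), TSFM (-0.31) and MTRF1L (-0.36) were also lower at 48 h, and MTRF1, a release factor, was higher (0.36 ± 0.09, adjusted p = 0.00811). The 48 h calls of these 7 genes held when any array was left out, and the 8 h call of MRRF did not in 4 of 12 fits, nor with each array centred on its median (0.08). At 48 h 1 was higher and 7 lower without the third array, TUFM being the one added (-0.31, adjusted p = 0.00772).

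Of 5 genes of translation termination, 3 were called higher at 8 h and 2 lower at 48 h, where 12.1% and 12.3% of all genes were. At 48 h 1 was lower without the third array. The release factor gene ETF1 was higher at 8 h (0.17 ± 0.05, adjusted p = 0.0303) and lower at 48 h (-0.22 ± 0.05, adjusted p = 0.00651). Its partners GSPT1 and GSPT2 were higher at 8 h (0.20 and 0.22), and HBS1L, which acts on stalled ribosomes, was lower at 48 h (-0.20). The 3 calls at 8 h were lost when each array was centred on its median (adjusted p between 0.065 and 0.071), and that of HBS1L too (0.056). Of the 12 fits that left out an array, 4 lost the 8 h call of ETF1, 5 that of GSPT1 and 9 that of GSPT2, which was at 0.13 without 8 h replicate 2. The call of HBS1L was lost in 8 of them, and without 48 h replicate 3 it was at -0.12.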
